A study of Mus musculus with 24 samples.

Results

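A set of 9 genes of heme breakdown and peroxide and superoxide defence were followed across mouse hearts: Hmox1, Nqo1, Gclc, Gclm, Txnrd1, Sod2, Cat, Prdx3 and Gpx3. They were chosen by name, and each had 1 probe on the array, so the rule of taking the brightest probe left nothing to choose. All 9 of 9 passed the filter on dim probes, out of 11428 genes that did so and 27670 genes and unnamed probes on the array in all.

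Nfe2l2, known as NRF2, is the transcription factor that many of these genes answer to. Keap1 normally holds NRF2 back and marks it for destruction, and electrophiles or oxidants release it. Freed NRF2 pairs with a small Maf protein on antioxidant response elements near genes for glutathione synthesis, thioredoxin reduction, quinone reduction and heme breakdown. Hmox1 is also repressed by Bach1 until heme removes that repressor. In the heart, mitochondria are a main source of superoxide, and restoring blood flow after a coronary block is known for a burst of it.

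The hearts came from mice 12 to 16 weeks old, in 2 genotypes: wild type (MuRF1+/+) and MuRF1 Tg+, which carry a transgene for MuRF1, a ubiquitin ligase of the sarcomere encoded by Trim63. Surgery was either a sham operation or I/R, short for ischemia-reperfusion: a tie around the left anterior descending (LAD) coronary artery stopped the flow and was then loosened. Each heart gave 2 pieces, one from above the tie and one from below it, or from either side of the matching site after sham surgery, so a change seen in both pieces is not a pair of independent results. This gave 8 groups of 3 arrays, 24 in all. Every array set Cy5-labelled heart RNA against a Cy3-labelled pool of whole C57BL/6 pups of postnatal day 1. The labels call the groups strain-matched without naming the strain, and they name neither the promoter that drives the transgene nor how long the flow was restored before the heart was taken.

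A level here is the log2 ratio of the heart's signal to that of the pup pool on the same spot, so 0 means equal signal and negative values mean less signal from the heart. Levels of different genes rest on different probes and are not compared. A difference between groups is given on the log2 scale ± the standard error of the fit, and passed the test when limma's p-value, adjusted by Benjamini-Hochberg over all 11428 genes, was under 0.05.

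The heart (Cy5) channel was uneven. Between 33.99% and 42.54% of probes were well above background on the 12 sham arrays, but between 9.64% and 37.63% on the 12 I/R arrays. On 5 I/R arrays the share was under 25%: wild type above 1 and 2, wild type below 1, and MuRF1 Tg+ below 2 and 3. These 5 are called the weak arrays. Values without them are given beside many of the results they changed, but not beside all. Without them, 2 I/R groups, wild type above and MuRF1 Tg+ below, held a single array, which is assumed to vary like the other groups. The median SD within a group ran from 0.0747 to 0.0998 in sham groups and from 0.12 to 0.22 in I/R groups, while the fit used 1 shared estimate. The heart muscle markers Myh6, Myl2, Tnnt2, Tnni3 and Actn2 were well above background on 24 of 24 arrays. Trim63 itself did not separate the genotypes: its level ran from 2.24 to 2.55 on wild-type sham arrays and from 2.22 to 2.47 on MuRF1 Tg+ sham arrays, and whether its probe lies within the transgene is not known, so genotypes are as labelled.

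Promoter sequence shows which of these genes carry the letters of an antioxidant response element close to the start site. RefSeq promoter windows (GRCm38.p6, from 250 bases before to 50 after a start site, on the gene's own strand) were at hand for 7 of the 9 genes, with 3 for Txnrd1, and for neither Hmox1 nor Gclc. The core of the element was searched as TGACNNNGC on both strands. It occurred in 2 of the 9 windows, from Txnrd1 and Gclm, against 12.4% of all 32851 windows of 300 bases. The motif TGANTCA, a loose form of the AP-1 site, occurred in none of the 9 windows and in 7.81% of all. A match is only a run of letters, and its absence says nothing about a factor that may act elsewhere. The first window below belongs to Txnrd1, which rose in wild-type hearts, the next to Gclm, which has the same core but passed no test, and the last to Prdx3, the gene that fell. Capitals mark the core, here read on the opposite strand.
Txnrd1, chr10:82858956-82859255, plus strand: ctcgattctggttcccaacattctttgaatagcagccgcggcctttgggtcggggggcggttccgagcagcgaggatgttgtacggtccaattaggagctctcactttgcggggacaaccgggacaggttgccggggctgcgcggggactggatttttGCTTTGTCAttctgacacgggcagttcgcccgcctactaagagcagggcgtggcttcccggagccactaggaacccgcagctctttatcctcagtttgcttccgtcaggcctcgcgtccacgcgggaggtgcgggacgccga
Gclm, chr3:122245307-122245606, plus strand: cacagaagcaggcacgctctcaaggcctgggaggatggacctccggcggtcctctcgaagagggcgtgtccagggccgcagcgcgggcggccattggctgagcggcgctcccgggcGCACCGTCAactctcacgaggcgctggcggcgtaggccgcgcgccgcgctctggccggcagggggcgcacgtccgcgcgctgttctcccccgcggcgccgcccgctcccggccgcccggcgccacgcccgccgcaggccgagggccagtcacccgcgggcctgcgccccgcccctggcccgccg
Prdx3, chr19:60874489-60874788, minus strand: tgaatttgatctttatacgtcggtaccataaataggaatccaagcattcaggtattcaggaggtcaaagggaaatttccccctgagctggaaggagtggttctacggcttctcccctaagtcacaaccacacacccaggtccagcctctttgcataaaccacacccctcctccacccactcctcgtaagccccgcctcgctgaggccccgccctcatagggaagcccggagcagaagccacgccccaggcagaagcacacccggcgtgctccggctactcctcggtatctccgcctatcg
In Txnrd1 the match began at position -92 from the start site, and in Gclm at position -134. The Prdx3 window held neither motif.

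Of the 9 members, 4 passed the test in at least 1 comparison of I/R with sham and 5 in none. In wild-type hearts 2 rose above the tie (Hmox1 and Txnrd1), against 5.97% of all genes rising and 7.31% falling. The same 2 rose below the tie, against 2.14% rising and 3.46% falling. Above the tie in MuRF1 Tg+ hearts 2 rose (Hmox1 and Gpx3), against 6.95% rising and 8.37% falling. Below the tie in MuRF1 Tg+ hearts 1 rose (Hmox1) and 1 fell (Prdx3), against 15.4% of all genes rising and 17.1% falling. The median difference of the members was 0.19, 0.24, 0.02 and -0.10 in these comparisons, beside medians of all genes between -0.0024 and 0.0034. Sham and I/R arrays did not overlap for 2, 4, 4 and 4 members, against 33.8%, 22.8%, 48.6% and 53.5% of all genes. No member passed in either genotype by surgery interaction (0.0175% of all genes above and 0.0175% below the tie) or piece by surgery interaction (0% in wild type and 0% in MuRF1 Tg+). At an unadjusted p under 0.05 in limma these held 1, 3, 0 and 2 members, against 8.27%, 10.5%, 1.8% and 6.26% of all genes. The members' non-overlapping share was above that of all genes only below the tie in wild-type hearts.

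Hmox1, the inducible heme oxygenase that splits heme into biliverdin, iron and carbon monoxide, was the member whose response was seen in every comparison of I/R with sham. It rose 2.68-fold above and 2.85-fold below the tie in wild-type hearts, and 2.33-fold above and 2.72-fold below in MuRF1 Tg+ hearts. Across the 12 sham arrays it lay between -1.77 and -1.45, far under the pup pool, and across the 12 I/R arrays between -0.93 and 0.27. No I/R array reached down to any sham array.

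In wild-type pieces above the tie, Hmox1 stood at -1.67, -1.77 and -1.45 after sham and at -0.42, -0.03 and -0.18 after I/R. The difference was 1.42 ± 0.21 (limma, adjusted p = 0.00051). Below the tie the sham arrays read -1.58, -1.46 and -1.70 and the I/R arrays 0.27, -0.07 and -0.41. That difference was 1.51 ± 0.21 (adjusted p = 0.00057). In both pieces every I/R array was higher than every sham array by more than 1 log2 unit, and the spread among I/R arrays was wider than among sham arrays. The array at 0.27 was weak, with a mean Cy5 signal before normalization of 55.3, against 57.5 to 125 on the sham arrays below the site. The weak arrays above the tie, at -0.42 and -0.03, had signals of 80.4 and 72.1, against 61.9 to 99.2 after sham.

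In MuRF1 Tg+ pieces above the tie, sham levels were -1.70, -1.66 and -1.71, and I/R levels were -0.73, -0.93 and 0.26. Hmox1 rose there by 1.22 ± 0.21 (limma, adjusted p = 0.0016). Replicates 1 and 2 of I/R sat well under replicate 3, which made this the group with the widest spread (SD 0.64). Below the tie, sham levels were -1.70, -1.70 and -1.52 and I/R levels -0.28, -0.19 and -0.12, a rise of 1.44 ± 0.21 (adjusted p = 0.00018).

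**Figure D1:**
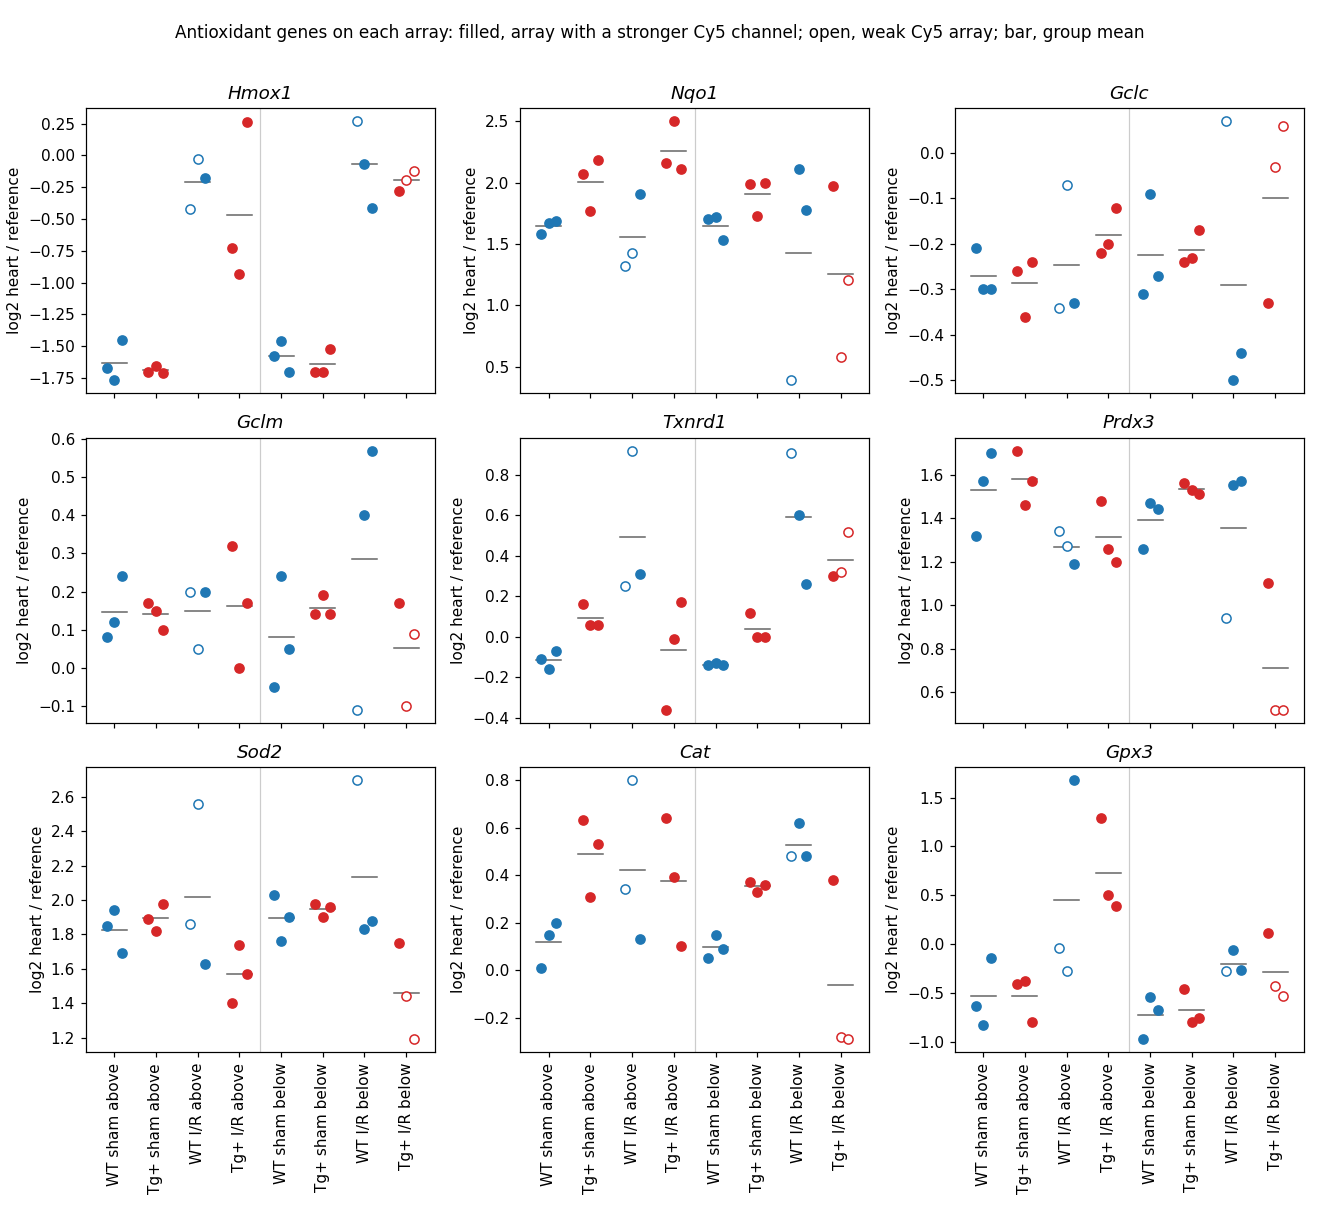
Level of each gene (log2 ratio of heart to pup pool, y axis) on each of the 24 arrays, by group along the x axis, blue for wild type and red for MuRF1 Tg+. Open points are the 5 weak arrays and bars are group means; Hmox1 shows 12 I/R arrays at -0.93 to 0.27 above 12 sham arrays at -1.77 to -1.45.

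Ordered by mean level, Hmox1 ran from wild type I/R below (-0.07 ± 0.34, SD, n = 3) through MuRF1 Tg+ I/R below (-0.20 ± 0.08), wild type I/R above (-0.21 ± 0.20) and MuRF1 Tg+ I/R above (-0.47 ± 0.64) to the 4 sham groups (-1.58 to -1.69). Neighbours in this order overlapped in every case except the step from I/R to sham. The genotypes were not separated in the Hmox1 response: the interaction of genotype and surgery was -0.20 above the tie, with a 95% interval from -0.84 to 0.43, and -0.07 below it, from -0.70 to 0.57. Those intervals leave room for a genotype difference of over 0.5 log2 units either way below the tie. The pieces were not separated either, with a piece by surgery interaction of 0.09 in wild type (interval -0.55 to 0.72) and 0.22 in MuRF1 Tg+ hearts (-0.41 to 0.86).

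Hmox1 was dim in sham hearts, with mean Cy5 signals of 57.5 to 125 units against 54.4 to 355 after I/R, and the offset used in background correction pulls such ratios toward 0. With Agilent's own log ratio the 4 rises were 2.26, 2.41, 1.90 and 2.38 in the order wild type above and below, then MuRF1 Tg+ above and below. Without the weak arrays they were 1.45, 1.34, 1.22 and 1.36, and all 4 passed. Arrays sat on 7 slides. With slide as a block, the rises were 1.20 (adjusted p = 0.077), 1.50 (0.070), 1.23 (0.044) and 1.20 (0.073), so only MuRF1 Tg+ above passed. In a fit on only the arrays compared, wild type below did not pass either (1.51, adjusted p = 0.082). The single pair of arrays that shared a slide in each comparison differed by 1.25, 1.29, 0.77 and 1.33. Under median centring in place of loess the rises were 0.62, 1.06, 0.77 and 0.36 and none passed, while the median of all genes itself moved to between -0.51 and -0.26.

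Markers of neutrophils and macrophages were read in the same comparisons of I/R with sham as Hmox1. Of 7 neutrophil markers, 4 passed the filter (S100a8, S100a9, Mmp9, Retnlg), and Ly6g, Csf3r and Cxcr2 did not. Their mean level ran from -2.44 to -2.15 on sham arrays and from -1.48 to 0.43 on I/R arrays, and 3, 3, 3 and 4 of the 4 rose in the same 4 comparisons. Macrophage markers overlapped between surgeries, at -0.24 to 0.06 after sham and -0.11 to 0.55 after I/R, with 2, 0, 4 and 3 of 10 tested rising and none falling. Their part in the Hmox1 result was not tested. In a piece of tissue, more cells of a type and more RNA per cell cannot be told apart.

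Txnrd1, cytosolic thioredoxin reductase, keeps thioredoxin in its reduced form at the expense of NADPH. It rose in wild-type hearts, 1.52-fold above and 1.65-fold below the tie. In MuRF1 Tg+ hearts it did not pass in either piece.

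Above the tie in wild-type hearts Txnrd1 read -0.11, -0.16 and -0.07 after sham and 0.25, 0.92 and 0.31 after I/R, a difference of 0.61 ± 0.16 (limma, adjusted p = 0.018). Below it the sham arrays read -0.14, -0.13 and -0.14 and the I/R arrays 0.91, 0.60 and 0.26, a difference of 0.72 ± 0.16 (adjusted p = 0.013). The groups did not overlap in either piece, and the highest array of each I/R group was a weak one. Without the weak arrays the differences were 0.43 (adjusted p = 0.079) and 0.56 (adjusted p = 0.0064), so the call above the tie was lost.

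In MuRF1 Tg+ hearts above the tie, Txnrd1 read 0.16, 0.06 and 0.06 after sham and -0.36, -0.01 and 0.17 after I/R. The difference was -0.16 ± 0.16 (limma, adjusted p = 0.50), with one I/R array above the sham arrays and the other two below them. Below the tie it read 0.12, 0.00 and 0.00 after sham and 0.30, 0.32 and 0.52 after I/R, a difference of 0.34 ± 0.16 that did not pass (adjusted p = 0.10) although the groups did not overlap. The genotype by surgery interaction above the tie was -0.77 ± 0.23, with an interval from -1.25 to -0.29, an unadjusted p of 0.0032 and an adjusted p of 0.35 (limma). A difference between genotypes in the Txnrd1 response was therefore not shown over all genes tested.

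The Txnrd1 calls were lost in several fits. Above the tie in wild-type hearts the call was lost without sham replicate 1 (adjusted p = 0.052), sham replicate 2 (0.066) or I/R replicate 2 (0.12), and below the tie without I/R replicate 1 (0.057). With slide as a block the differences were 0.37 (adjusted p = 0.42) and 0.60 (0.29), and within the shared slides 0.36 and 0.40. Under median centring the value above the tie was -0.34, relative to a median of all genes of -0.44, and below it 0.19 (adjusted p = 0.77). The call above the tie was also lost with Agilent's own log ratio (0.78, adjusted p = 0.075) and with the authors' deposited series table (0.78, 0.075). On only the arrays compared, both were lost (adjusted p = 0.081 above and 0.19 below).

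Prdx3, the mitochondrial peroxiredoxin that removes hydrogen peroxide made by respiration, fell 1.76-fold below the tie in MuRF1 Tg+ hearts after I/R. No other member fell in a comparison of I/R with sham. Its levels there were 1.10, 0.52 and 0.52 after I/R against 1.56, 1.53 and 1.51 after sham, a difference of -0.82 ± 0.16 (limma, adjusted p = 0.0014). All 3 I/R arrays were lower than all 3 sham arrays, and the lower 2 of them were the weak arrays. Without the weak arrays 1 array of that group remained and the difference was -0.43 (adjusted p = 0.052).

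In the other 3 comparisons Prdx3 differed by -0.27 ± 0.16 (wild type above, adjusted p = 0.26), -0.04 ± 0.16 (wild type below, 0.92) and -0.27 ± 0.16 (MuRF1 Tg+ above, 0.25), with none passing. The last of these comparisons held no weak array, and its -0.27 had an adjusted p of 0.038 once the weak arrays were left out of the fit. With slide as a block the value below the tie in MuRF1 Tg+ hearts was -0.78 (adjusted p = 0.078), and the pair on 1 slide, which held a weak array, differed by -0.98. Markers of ventricular heart muscle were lower in the same comparison, with 4 of 10 falling and a median of -0.60. Their mean level in that comparison was 3.89, 3.80 and 3.73 after sham and 3.47, 2.80 and 2.77 after I/R, the lower 2 on the weak arrays. Over all sham arrays it ran from 3.30 to 3.89 and over all I/R arrays from 2.77 to 3.62. The part of these markers in the Prdx3 result was not tested.

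Gpx3, a secreted glutathione peroxidase found in plasma, rose 2.38-fold above the tie in MuRF1 Tg+ hearts. It read -0.41, -0.37 and -0.79 after sham and 1.29, 0.50 and 0.39 after I/R, a difference of 1.25 ± 0.36 (limma, adjusted p = 0.024). The I/R arrays were all higher than the sham arrays, and none was weak. In wild-type hearts above the tie it read -0.63, -0.82 and -0.14 after sham and -0.04, -0.27 and 1.68 after I/R. That difference, 0.99 ± 0.36, did not pass (adjusted p = 0.070), and one array carried most of it while the other two, both weak, lay near the sham range. That single array, without the weak ones, gave 2.21 (adjusted p = 0.00015), so the call was gained on 1 I/R array.

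Below the tie, Gpx3 differed by 0.52 ± 0.36 in wild-type hearts (adjusted p = 0.43) and by 0.39 ± 0.36 in MuRF1 Tg+ hearts (0.40), and the latter was 0.79 (0.089) without the weak arrays. The Gpx3 call above the tie in MuRF1 Tg+ hearts was lost without sham replicate 1 (adjusted p = 0.063), sham replicate 3 (0.10) or I/R replicate 1 (0.087). With slide as a block it was 1.48 (adjusted p = 0.090), and the pair on 1 slide differed by 1.29. It was also lost with Agilent's own log ratio (1.41, adjusted p = 0.070), the authors' deposited series table (1.41, 0.070), median centring (0.76, 0.49) and no filter on dim probes (1.25, 0.053). Atrial markers were also higher above the tie: of 5 tested, 1 rose in wild-type and 2 in MuRF1 Tg+ hearts, with medians of 2.57 and 2.68. Their mean level ran from -1.67 to 1.64 on sham arrays and from -1.46 to 3.59 on I/R arrays. On the wild-type I/R arrays above the tie it was 1.95, -0.48 and 3.59, where Gpx3 read -0.04, -0.27 and 1.68. On the MuRF1 Tg+ I/R arrays above the tie it was 2.33, 2.20 and 2.15, where Gpx3 read 1.29, 0.50 and 0.39. On the matching MuRF1 Tg+ sham arrays it was -1.55, 1.64 and -1.67, where Gpx3 read -0.41, -0.37 and -0.79. The part of atrial tissue in the Gpx3 result was not tested.

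**Figure D2:**
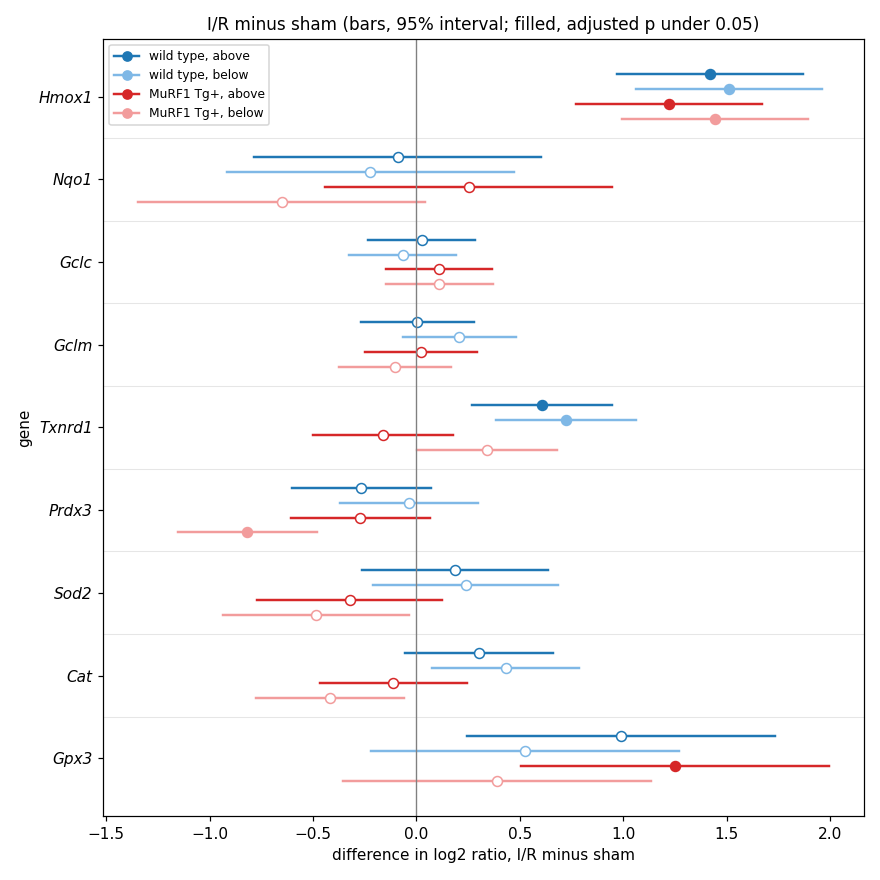
Difference in log2 ratio, I/R minus sham (x axis), for each gene (y axis), in 2 genotypes and 2 pieces; points are limma estimates, bars 95% intervals, and filled points passed the test. Hmox1 lies between 1.22 and 1.51 in all 4 comparisons, and Prdx3 below the tie in MuRF1 Tg+ hearts is the only filled point under 0.

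The other 5 members passed in no comparison of I/R with sham. Nqo1, a quinone reductase that is a standard readout of NRF2, read between 1.53 and 2.18 on sham arrays and between 0.39 and 2.50 on I/R arrays. Its differences were -0.09, -0.22, 0.25 and -0.65, each ± 0.33, and the last had an interval from -1.35 to 0.04. Wild type below the tie shows the spread, with I/R levels of 0.39, 2.11 and 1.78 against sham levels of 1.70, 1.72 and 1.53. The lowest of these I/R arrays was a weak one. Above the tie in wild-type hearts the weak I/R arrays read 1.32 and 1.43 and the other read 1.91. Sham arrays there read 1.58, 1.67 and 1.69. Below the tie in MuRF1 Tg+ hearts the difference was 0.07 without the weak arrays.

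Gclc and Gclm encode the catalytic and the modifier subunit of glutamate-cysteine ligase, the first enzyme of glutathione synthesis. Both probes were dim: Gclc was well above background on 20 of 24 arrays and Gclm on 19 of 24, and every array that missed was an I/R array. Gclc differed by 0.02, -0.07, 0.11 and 0.11 (each ± 0.12), and Gclm by 0.004, 0.21, 0.02 and -0.10 (each ± 0.13). All of these intervals stayed between -0.38 and 0.48 on this scale, where the offset understates changes of dim genes. In wild-type pieces below the tie, Gclm read -0.11, 0.40 and 0.57 after I/R against -0.05, 0.24 and 0.05 after sham. Its lowest array was weak and not above background, and without that array alone the difference was 0.41 (adjusted p = 0.033). Without all the weak arrays both genes passed there, Gclm at 0.41 (adjusted p = 0.013) and Gclc at -0.25 (0.045).

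Sod2, the manganese superoxide dismutase of mitochondria, differed by 0.19 and 0.24 (± 0.21) in wild-type and by -0.32 and -0.49 (± 0.21) in MuRF1 Tg+ hearts. The highest wild-type I/R levels lay on weak arrays. Above the tie the weak I/R arrays read 1.86 and 2.56 and the other 1.63, against 1.85, 1.94 and 1.69 after sham. Below the tie the weak I/R array read 2.70 and the others 1.83 and 1.88, against 2.03, 1.76 and 1.90 after sham. In MuRF1 Tg+ pieces above the tie it read 1.89, 1.82 and 1.98 after sham and 1.40, 1.74 and 1.57 after I/R. Below the tie it read 1.98, 1.90 and 1.96 after sham and 1.75, 1.44 and 1.19 after I/R. Sham and I/R arrays did not overlap in either piece, but neither difference passed (limma, adjusted p = 0.31 and 0.085). With the weak arrays left out, the value above the tie, where none lay, was the same with an adjusted p of 0.010, and the value below it was -0.20 (0.34).

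Cat, catalase, which splits hydrogen peroxide in peroxisomes, differed by 0.30 and 0.43 (± 0.17) in wild-type hearts and by -0.11 and -0.42 (± 0.17) in MuRF1 Tg+ hearts, above and below the tie. None passed, with adjusted p from 0.065 to 0.67. Below the tie wild-type levels were 0.05, 0.15 and 0.09 after sham and 0.48, 0.62 and 0.48 after I/R, without overlap. MuRF1 Tg+ levels there were 0.37, 0.33 and 0.36 after sham and 0.38, -0.28 and -0.29 after I/R, where the 2 low arrays were the weak ones. Leaving out the weak arrays, the differences were 0.01 above and 0.45 below the tie in wild-type hearts, of which the second passed (adjusted p = 0.025), and 0.03 below it in MuRF1 Tg+ hearts.

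The genotypes were then compared with each other. After sham surgery no member passed in either piece, against 0.035% of all genes above and 0.0263% below the site. At an unadjusted p under 0.05 in limma there were 1 and 0 members, against 1.99% and 1.44% of all genes. Yet 3 members above the site and 4 below it were higher in every MuRF1 Tg+ array than in every wild-type array, against 6.05% and 6.34% of all genes. Both sets held Nqo1, Txnrd1 and Cat, and Prdx3 joined them below the site. The sham groups had the smallest spread of the study. In neither piece did a slide hold sham arrays of both genotypes, so genotypes were never compared within a slide.

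Nqo1 read 2.07, 1.77 and 2.18 in MuRF1 Tg+ against 1.58, 1.67 and 1.69 in wild-type sham hearts above the site, a difference of 0.36 ± 0.33. Cat read 0.63, 0.31 and 0.53 against 0.01, 0.15 and 0.20, a difference of 0.37 ± 0.17 (limma, adjusted p = 0.9999). Txnrd1 differed by 0.21 ± 0.16 above and 0.17 ± 0.16 below the site. Each of these differences was at most 0.37 in size, and the smallest adjusted p over the members was 0.9999 above and 1 below the site.

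**Figure D3:**
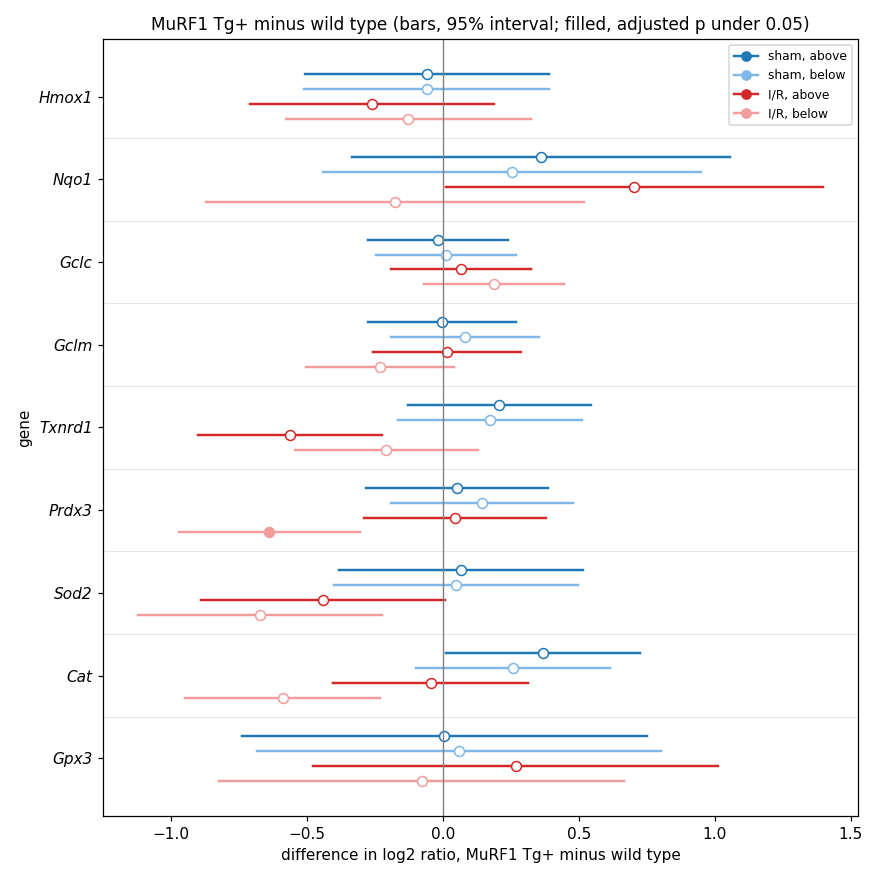
Difference in log2 ratio, MuRF1 Tg+ minus wild type (x axis), for each gene (y axis), after sham surgery and after I/R in both pieces; points are limma estimates and bars 95% intervals. Prdx3 after I/R below the tie, at -0.64, is the only filled point, meaning the only one that passed.

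After I/R above the tie no member passed, against 0.656% of all genes, and 2 had an unadjusted p under 0.05 in limma, against 14%. Nqo1 was higher in all MuRF1 Tg+ arrays (2.16, 2.50 and 2.11) than in all wild-type arrays (1.32, 1.43 and 1.91), a difference of 0.70 ± 0.33 (limma, adjusted p = 0.35), and the lower 2 wild-type arrays were weak. It was 0.35 without the weak arrays. The differences of Gpx3 and Sod2, 0.27 and -0.44 with all arrays, were then -0.96 and -0.06, and none passed. Txnrd1 was lower in all MuRF1 Tg+ arrays, by -0.56 ± 0.16 (adjusted p = 0.11). So 2 members separated the genotypes there, against 14.7% of all genes. Here too, no slide held both genotypes.

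After I/R below the tie Prdx3 was lower in MuRF1 Tg+ hearts by -0.64 ± 0.16, or 1.56-fold (limma, adjusted p = 0.040), the only member of 9 that passed, against 1.71% of all genes lower. MuRF1 Tg+ arrays read 1.10, 0.52 and 0.52 and wild-type arrays 0.94, 1.55 and 1.57. The groups overlapped, and the lowest array of the wild-type group was also a weak one. Without the weak arrays the difference was -0.46 (adjusted p = 0.067). The call was also lost without wild type I/R replicate 2 (adjusted p = 0.18) or 3 (0.22) or MuRF1 Tg+ I/R replicate 2 (0.18) or 3 (0.26). No slide held both genotypes of this condition, and with slide as a block the difference was -0.64 (adjusted p = 0.51).

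Sod2 and Cat were lower in MuRF1 Tg+ hearts in the same comparison, by -0.67 ± 0.21 and -0.59 ± 0.17, without passing (limma, adjusted p = 0.085 and 0.067). Both separated the groups without overlap, which 5.81% of all genes did in this direction. They were -0.10 and -0.17 without the weak arrays (adjusted p = 0.67 and 0.54). In the genotype by surgery interaction below the tie, Cat gave -0.85 ± 0.24, Prdx3 -0.78 ± 0.23 and Sod2 -0.72 ± 0.30. None of these passed (adjusted p = 0.32, 0.33 and 0.44), and without the weak arrays they were -0.43, -0.60 and -0.15.

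Between pieces of the same genotype and surgery no member passed, and of all genes 0%, 0%, 0.0175% and 0.481% did so in wild-type sham, MuRF1 Tg+ sham, wild-type I/R and MuRF1 Tg+ I/R hearts. In limma, 0, 0, 0 and 5 members had an unadjusted p under 0.05, against 0.131%, 0.928%, 6.52% and 22.6% of all genes. The 5, all in MuRF1 Tg+ hearts after I/R, were Nqo1 (-1.01 ± 0.33, below minus above), Gpx3 (-1.004 ± 0.36), Prdx3 (-0.60 ± 0.16), Cat (-0.44 ± 0.17) and Txnrd1 (0.45 ± 0.16). Their adjusted p ran from 0.084 to 0.17. Both weak arrays of the genotype lay in the group below the tie, and without the weak arrays the 5 values were -0.29, -0.60, -0.21, 0.004 and 0.37. In wild-type hearts Gpx3 between pieces after I/R was then -1.85, from -0.66, and its piece by surgery interaction was -1.65. Both values rest on the single wild-type I/R array above the tie that was not weak.

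Several members read differently on the weak arrays than on the other I/R arrays. The weak arrays lay unevenly among the I/R groups, so signal strength and group cannot be fully told apart. Over the 12 I/R arrays, Pearson's r between the gene's level and the share of probes with Cy5 well above background was 0.84 for Nqo1, 0.82 for Gclm, 0.72 for Prdx3, 0.63 for Gpx3 and 0.28 for Cat. It was -0.82 for Gclc, -0.61 for Txnrd1, -0.47 for Hmox1 and -0.41 for Sod2. These arrays share slides and hearts, so the correlations are descriptions only. Nqo1 gave the cleanest division: 0.39 to 1.43 on the 5 weak arrays and 1.78 to 2.50 on the other 7 I/R arrays. Hmox1 did not divide that way, at -0.42 to 0.27 and -0.93 to 0.26.

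**Figure D4:**
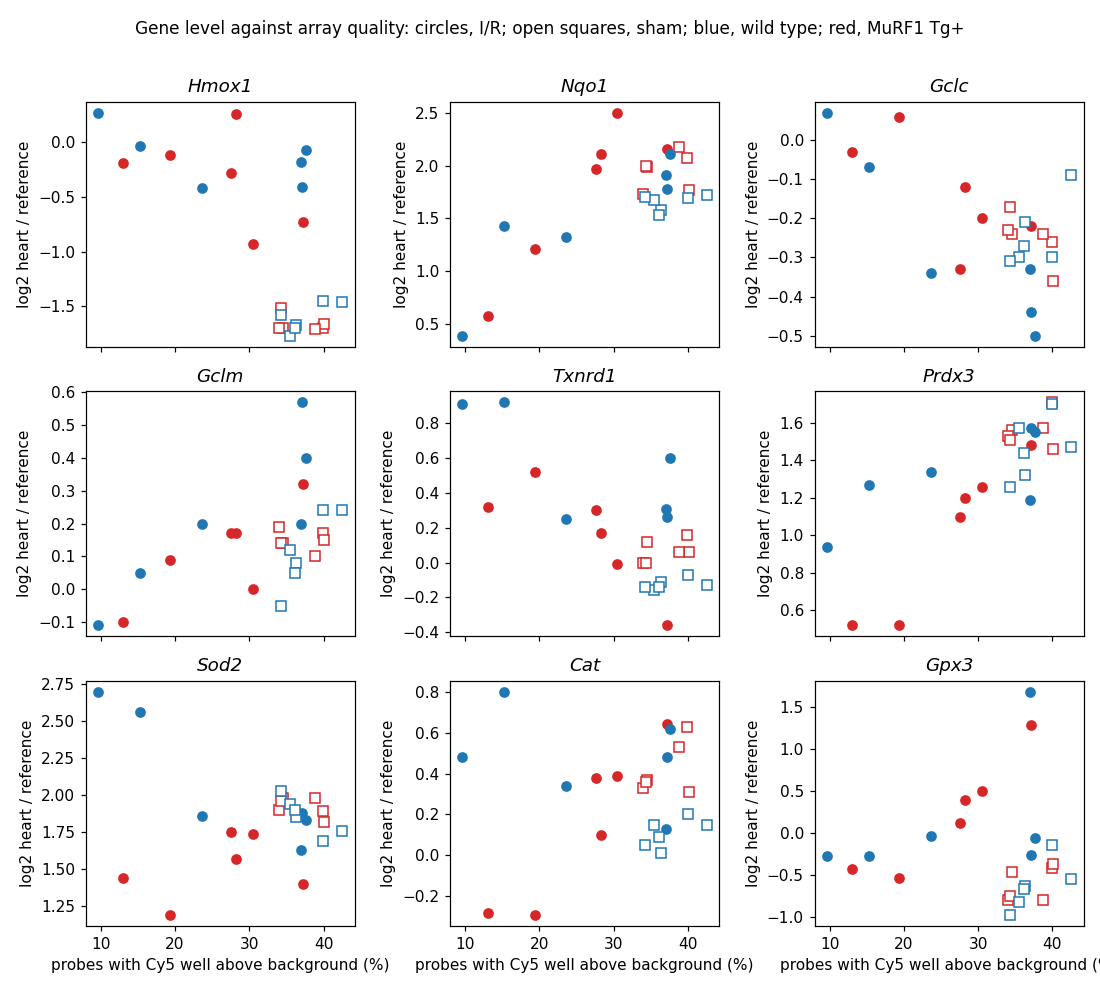
Level of each gene (log2 ratio of heart to pup pool, y axis) against the percentage of probes with the Cy5 signal well above background on the same array (x axis); circles are I/R arrays, open squares sham arrays, blue wild type and red MuRF1 Tg+. Nqo1 climbs with the share over the I/R arrays (r = 0.84), while Hmox1 stays above its sham arrays at every share.

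The genes whose levels ran most like a member's over the 24 arrays were named by correlation alone, as the 3 with the highest Pearson r. For Hmox1 these were the metallothioneins Mt2 (r = 0.97) and Mt1 (0.95), small metal-binding proteins, and the cell-cycle inhibitor Cdkn1a (0.95). Much of that likeness was the step between surgeries, since within the 12 sham arrays Mt2 gave 0.34 and within the 12 I/R arrays 0.74. For Prdx3 they were Nipsnap2, Akr1b10 and Nudt7 (each 0.96), and these held within sham arrays alone at 0.87 to 0.90.

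For Sod2 the closest were Ldhb (0.94), Uqcrfs1 (0.92) and Mdh1 (0.91), genes of lactate, respiratory and malate metabolism. Rad23b (0.94), Nip7 (0.86) and Pelo (0.86) were closest to Txnrd1. Nqo1 was nearest to Kxd1 (0.90), Gsta4 (0.90), a glutathione transferase, and Gata6 (0.89), and Cat to Rnf114 (0.85), Gstm3 (0.83) and Ephx2 (0.82). Gpx3 was nearest to Gas6 (0.89), Mlana (0.89) and Cfhr2 (0.88), though within sham arrays Gas6 gave -0.34. For the dim genes the nearest were Cdkn1c (0.90) and Tnnt1 (0.88) with an unnamed probe (0.92) for Gclc, and Taf13, Nus1 and Atg13 (0.85 to 0.89) for Gclm. Within sham arrays alone, r with these neighbours was 0.31 to 0.62 for Sod2, 0.35 to 0.67 for Txnrd1 and -0.19 to 0.88 for Nqo1. It was 0.52 to 0.83 for Cat, 0.47 to 0.61 for Gclc and 0.32 to 0.59 for Gclm.

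The wider antioxidant pathway was read from 7 lists holding 98 other genes, of which 90 passed the filter. Above the tie in wild-type hearts 12 rose and 5 fell, and below it 7 rose and 1 fell. In MuRF1 Tg+ hearts 9 rose and 2 fell above the tie, and 14 rose and 20 fell below it. As shares of the 90 these are 13.3%, 7.78%, 10% and 15.6% rising and 5.56%, 1.11%, 2.22% and 22.2% falling, in the order wild type above and below, then MuRF1 Tg+ above and below. All genes, in the same order, rose in 5.97%, 2.14%, 6.95% and 15.4% and fell in 7.31%, 3.46%, 8.37% and 17.1%, so the share rising below the tie in MuRF1 Tg+ hearts was about that of all genes. All named values that follow passed limma's test at an adjusted p under 0.05. They and the counts come from the main fit alone, and are not given without the weak arrays, with slide as a block or under median centring. Replicates 2 and 3 of MuRF1 Tg+ I/R below the tie were weak arrays, so the falls there carry the same limit as that of Prdx3.

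Among NRF2 and its partners, 8 of 8 were tested and 2, 2, 1 and 1 rose in wild type above and below and MuRF1 Tg+ above and below. Maff, a small Maf partner, rose in all 4 comparisons (1.45, 1.11, 1.40 and 1.25, each ± 0.18). Sqstm1, the autophagy receptor p62 that draws Keap1 away, rose in wild-type hearts by 1.07 and 1.09 (± 0.26). Keap1 fell by 0.63 ± 0.21 below the tie in MuRF1 Tg+ hearts.

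Of 13 heme and iron genes tested, 3 passed in at least 1 of these comparisons. Alas1, the first enzyme of heme synthesis in non-erythroid cells, fell in all 4 comparisons (-0.99, -0.77, -0.97 and -1.27, each ± 0.20). Hp, haptoglobin, which binds free hemoglobin, rose in 3 of the 4 (1.20 in wild type above, and 1.44 and 1.28 in MuRF1 Tg+ hearts, each ± 0.35). Slc40a1, the iron exporter ferroportin, rose by 0.75 and 0.65 in wild-type hearts and by 0.46 below the tie in MuRF1 Tg+ hearts (± 0.17).

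Among glutathione genes Gpx1, the main cytosolic glutathione peroxidase, rose in all 4 comparisons (0.62, 0.46, 0.76 and 0.86, each ± 0.11). Mgst1, a membrane-bound glutathione transferase, rose by 1.22 and 1.18 in wild-type hearts and by 0.71 above the tie in MuRF1 Tg+ hearts (± 0.16). Gstm1 rose by 1.05 ± 0.32 above the tie in wild-type hearts. Of 24 tested, 3, 2, 3 and 2 rose and 1, 0, 0 and 4 fell, and the 4 that fell below the tie in MuRF1 Tg+ hearts were Mgst3, Glrx5, Gstk1 and Glrx2 (-0.89 to -0.68).

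Of 16 thioredoxin and peroxiredoxin genes, 2, 2, 0 and 2 rose and 2, 0, 0 and 7 fell. Txn1, the substrate of Txnrd1, rose by 0.55 and 0.51 in wild-type hearts and by 0.53 below the tie in MuRF1 Tg+ hearts (± 0.10). Sesn2, a sestrin, rose by 0.65 ± 0.19 below the tie in MuRF1 Tg+ hearts. The genes that fell below the tie in MuRF1 Tg+ hearts were led by Msrb2 (-1.22 ± 0.34) and Prdx5 (-0.93 ± 0.23), with Msra (-0.78 ± 0.21) next.

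NADPH supply, which both glutathione and thioredoxin reduction draw on, had 1, 0, 2 and 4 of 11 tested genes rising and 0, 0, 0 and 4 falling. Below the tie in MuRF1 Tg+ hearts Tkt (0.89 ± 0.23) of the pentose phosphate pathway rose, while mitochondrial Idh2 (-2.05 ± 0.50) and Me3 (-1.58 ± 0.45) and the cytosolic malic enzyme Me1 (-0.76 ± 0.22) fell.

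Of 12 other NRF2 targets tested, 2, 0, 2 and 3 rose and 1, 0, 1 and 3 fell. Ugdh rose by 0.96, 1.00 and 1.25 (± 0.23), and Cbr3 by 0.43, 0.63 and 0.49 (± 0.12), in wild type above and in both MuRF1 Tg+ pieces. Below the tie in MuRF1 Tg+ hearts Slc6a9, a glycine transporter, rose by 0.65 ± 0.24, and Aox1, an aldehyde oxidase, fell by 0.68 ± 0.24. None of the 6 tested superoxide genes passed in any of the 4 comparisons.

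Between genotypes after I/R below the tie, 4 genes of these lists passed, all lower in MuRF1 Tg+ hearts: Mgst1 (-0.84 ± 0.16), Prdx1 (-0.69 ± 0.17), Glrx3 (-0.60 ± 0.15) and Glrx5 (-0.44 ± 0.12). They passed beside Prdx3, in the comparison where both genotypes held weak arrays. No gene of these lists passed between genotypes in the other 3 conditions or between pieces.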

How the data were processed

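Total RNA from 24 heart pieces, 50 ng each, was put on Agilent two-colour arrays. Per the labels, heart RNA was Cy5 and the pup pool Cy3 on every array, without a dye swap; a labelling protocol has the heart RNA take Cy3-CTP, and the label fields were followed. Per the file headers, spots were quantified by Feature Extraction 9.5.3.1. The deposited spot intensity values are linear and not normalized, and the deposited log10 ratio is Agilent's own. The authors' deposited series table has values on a log2 scale that match Agilent's ratio (r at least 0.9865, column medians -0.1118 to 0.139), with the centring method unstated.

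In limma 3.58.1 (R 4.3.3), background was corrected with normexp (offset 50) and each array normalized by loess, with control and outlier spots at weight 0. Of 41174 probes, 15427 passed a filter that asks for a Cy5 spot well above background in every array of 1 or more groups, and the brightest probe per gene left 11428 genes. No Cy5 spot was saturated. Symbols came from RefSeq by accession for 22951 probes, and 3109 older symbols were updated. Coordinates of probes are not given because the array files name no build. One fit of 8 group means (lmFit and eBayes, 16 residual degrees of freedom) gave all 16 comparisons, each adjusted by Benjamini-Hochberg. Groups of 3 limit the precision. The members, the pathway and marker lists and the tests were chosen with earlier results of these data known. Of each pathway list, up to 4 genes with the largest passing difference after I/R were named; Txn1, Glrx5, Gstk1, Glrx2 and the genes that passed between genotypes were named after their values were seen. Lymphocyte markers had no tested gene, and endothelial, fibroblast, smooth muscle, erythroid, adipocyte and epicardial markers are not compared here. Slide came from the array headers.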

Additional observations from a re-analysis of the deposited data

How the results depend on the processing

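Counts of members past the threshold are given in the order wild type above and below, MuRF1 Tg+ above and below for I/R minus sham (2, 2, 2 and 2 in the report). In the same order, Agilent's log ratio and the series value table each gave 1, 2, 1 and 3; median centring 0, 0, 0 and 4; slide as a block 0, 0, 1 and 0; only the arrays compared 1, 0, 3 and 4; array weights 3, 5, 4 and 6; no filter on dim probes 2, 2, 1 and 2; and the Cy5 channel alone 2, 2, 3 and 4. Without the weak arrays, an alternative chosen after seeing the data, the counts were 2, 5, 4 and 1. For MuRF1 Tg+ minus wild type after I/R below the tie (1 in the report), Agilent's ratio, the series table and the Cy5 channel alone each gave 3 and array weights 6, and median centring, no filter, slide, only the arrays compared and no weak arrays each gave 0.

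Comparisons in which no member passed in the report gained members under array weights: 1 for genotype after I/R above and after sham above, 5 and 1 between pieces after I/R in MuRF1 Tg+ and wild type, 1 and 6 for genotype by surgery above and below, and 2 for piece by surgery in MuRF1 Tg+. Without the weak arrays wild type held a single I/R array above the tie, so its gains between pieces after I/R and for piece by surgery are not counted. Leaving out each array in turn gave 1 to 2, 2 to 2, 1 to 2 and 2 to 5 members for I/R minus sham; 0 to 1 and 0 to 5 for genotype after I/R above and below; 0 to 1 and 0 to 3 between pieces after I/R in wild type and MuRF1 Tg+; and 0 to 3 for genotype by surgery below.

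Hmox1 kept its call in all 6 fits that left out 1 array, in each of the 4 comparisons. Below the tie in wild-type hearts, leaving out I/R replicate 1 lost the Txnrd1 call and gained Gclm, so the unchanged count there held different members. Under median centring Txnrd1 above the tie in wild type became -0.3367 (adjusted p = 0.4853), and Gclc below the tie in MuRF1 Tg+ hearts -0.4223 (adjusted p = 0.04364), where the median of all genes was -0.5137; sign changes of differences that passed in neither fit are not counted here. Replicate numbers were not shown to pair the pieces of a heart: over 12 same-numbered pairs the correlation of deviations ran from -0.7348 to 0.539, with 8 over 0.1. With replicate number as a block, Prdx3 in genotype after I/R below lost its call (0 members), and no other count changed under it or under heart as a random block (correlation 0.0765). The causes of these changes were not tested. Dim signal limits Gclc and Gclm.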
